A study of Homo sapiens with 4 samples.

Results

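The genes of cholesterol and fatty acid synthesis were examined in cells labelled HepG2, wild type or knocked out for ZCCHC4, a zinc finger protein known as a methyltransferase of ribosomal RNA. The 37 genes were taken by name, as 5 regulators of the pathway, 18 enzymes of cholesterol synthesis, the sterol carrier STARD4 and 13 genes of fatty acid synthesis, elongation, desaturation and activation. All 37 were in the table of 16658 genes, and 36 passed the filter for testing, which asked for an FPKM (fragments per kilobase of transcript, scaled to the mapped fragments of the library) of at least 1 in at least 2 libraries and kept 10726 genes. The gene that did not pass was ACACB, a carboxylase of the mitochondrial surface, which had FPKM values of 0.52 and 0.34 in WT cells and 0.71 and 0.83 in ZCCHC4 KO1 cells.

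Total RNA was sequenced from 2 libraries of wild type (WT) cells and 2 libraries of cells labelled ZCCHC4 KO1, a CRISPR/Cas9 knockout line made from the same cells. Both groups were untreated and grown in serum-containing DMEM until nearly confluent. KO1 is 1 knockout line, so the loss of ZCCHC4 and other differences of that line from WT cannot be told apart. The labels do not say whether the replicates were separate cultures, and every p-value below therefore measures the spread between these libraries, which may be technical. The targeted gene had FPKM values of 7.22 and 5.44 in WT and of 1.08 and 2.29 in KO1, a log2 fold change of -1.48 (SE 0.287, adjusted p = 0.0448, limma with Benjamini-Hochberg adjustment over the genes tested), so its transcript was lower and not absent. The call was lost with a pseudocount of 0.1 (adjusted p = 0.0551), with no filter on low values (0.115) and without ZCCHC4 KO1 replicate 1 (0.0514). HepG2 is a line from a human liver tumour, yet of 17 hepatocyte markers looked for, 12 were in the table and only VTN, which encodes vitronectin, reached an FPKM of 1 in any library. The values below are thus from cells labelled HepG2 in which defining hepatocyte transcripts such as AFP (0.00, 0.05, 0.00 and 0.00) were at or near 0.

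Cholesterol and fatty acid synthesis are governed by the SREBP transcription factors, which SREBF1 and SREBF2 encode. SREBP precursors sit in the membrane of the endoplasmic reticulum with the escort protein SCAP, and when sterol is plentiful the INSIG proteins hold SCAP there. When sterol is short, SCAP carries the precursor to the Golgi, where the proteases encoded by MBTPS1 and MBTPS2 release the active factor. SREBP-2 acts mainly on genes of cholesterol synthesis and SREBP-1c on genes of fatty acid synthesis, and INSIG1 is itself an SREBP target.

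SREBPs bind sterol regulatory elements, often beside boxes for NF-Y and Sp1, so the start-site regions of the genes were read from RefSeq (GRCh38.p14), each from 250 bases before the start to 50 bases after it. Of the 37 genes, 33 had such a region, in 45 windows, and ACAT2, SQLE, FASN and FDFT1 had none. The windows of SREBF2 (chr22:41832855-41833154, plus strand), INSIG1 (chr7:155297628-155297927, plus strand), EBP (chrX:48521558-48521857, plus strand) and LSS (chr21:46228725-46229024, minus strand) are shown because they belong to a regulator, to the regulator with the lowest log2 fold change, to the enzyme that passed the test, and to an enzyme whose values lay the other way. They are written 5′ to 3′ on the strand of the gene, and capitals mark the letters TCACNCCAC (a sterol regulatory element), CACGTG (an E-box), CCAAT (NF-Y) and GGGCGG (Sp1), each searched on both strands.
SREBF2: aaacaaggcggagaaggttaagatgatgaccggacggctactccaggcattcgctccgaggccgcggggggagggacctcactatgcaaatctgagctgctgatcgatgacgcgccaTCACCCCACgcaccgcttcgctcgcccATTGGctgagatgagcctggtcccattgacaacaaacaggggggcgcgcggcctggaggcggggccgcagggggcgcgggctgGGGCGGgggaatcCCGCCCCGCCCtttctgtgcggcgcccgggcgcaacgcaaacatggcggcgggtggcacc
INSIG1: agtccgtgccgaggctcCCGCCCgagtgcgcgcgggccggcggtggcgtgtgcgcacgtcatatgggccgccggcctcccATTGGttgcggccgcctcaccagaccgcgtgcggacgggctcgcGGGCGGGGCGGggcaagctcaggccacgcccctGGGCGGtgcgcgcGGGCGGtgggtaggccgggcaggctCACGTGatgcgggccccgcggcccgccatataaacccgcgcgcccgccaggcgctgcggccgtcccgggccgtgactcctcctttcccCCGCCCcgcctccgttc
EBP: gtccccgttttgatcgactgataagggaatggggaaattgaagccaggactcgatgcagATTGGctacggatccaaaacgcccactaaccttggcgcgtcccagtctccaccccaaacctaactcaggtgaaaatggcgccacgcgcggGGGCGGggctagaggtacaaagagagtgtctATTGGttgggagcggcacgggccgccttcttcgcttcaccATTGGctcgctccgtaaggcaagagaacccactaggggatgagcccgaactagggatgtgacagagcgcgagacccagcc
LSS: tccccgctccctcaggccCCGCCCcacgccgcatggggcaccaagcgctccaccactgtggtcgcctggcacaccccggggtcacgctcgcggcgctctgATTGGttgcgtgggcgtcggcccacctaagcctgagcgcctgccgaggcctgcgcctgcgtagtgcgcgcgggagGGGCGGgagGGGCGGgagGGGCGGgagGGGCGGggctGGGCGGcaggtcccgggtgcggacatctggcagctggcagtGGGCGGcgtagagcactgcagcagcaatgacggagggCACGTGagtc

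The sterol regulatory element letters were found in the window of SREBF2 alone among the 33 genes, as TCACCCCAC at bases 118 to 126 of the window. That was 2.22% of the members' windows, against 1.13% of all 35116 windows. CCAAT stood in 64.4% of the members' windows, against 34.6% of all windows, and GGGCGG in 86.7% against 45%. The E-box letters were in the windows of 5 genes, ELOVL5, INSIG1, LSS, SC5D and SCAP, or 13.3% of windows against 7.26% of all. In INSIG1, the E-box lay at bases 196 to 201 of the window. Overlapping GGGCGG matches stood in SREBF2 and INSIG1. The members' windows were set beside all windows, which were not matched to them for expression or GC content. A match of letters is a description and no evidence of binding. Sites outside these windows, and elements spelled with other letters, were not searched, so a window without a match may still hold an element.

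As a set, the members lay close to the other genes. The median log2 fold change, on the log2(FPKM + 1) scale and as KO1 minus WT, was -0.08 over the 36 genes tested and -0.03 over all genes tested. EBP was the only member called, and it was called lower, at an adjusted p below 0.05. Of all genes tested, 4.48% were called lower and 1.5% higher. How many members were called lower depended on which library was left out, and so did the number over all genes. No member was called higher by limma, and at an unadjusted p below 0.05 there were 2 higher and 5 lower members, against 8.96% and 13.9% of all genes. At the thresholds named in the study (a fold change of 2 or more, p below 0.05 and FDR below 0.001) 0 members and 0.0746% of all genes were called by limma. The study reported far more genes at these thresholds. Its test and its list of genes are not given in the sources used here, so whether that list held members is unknown. Both KO1 libraries lay below both WT libraries in 13 members, or 36.1%, against 28.5% of all genes, and above both in 6 members, or 16.7%, against 23.1%. The libraries overlapped in the remaining 17 members tested. In bulk RNA, a lower level in every cell and a lower level in part of the cells cannot be told apart.

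For the transcription factors and their escort, the log2 fold changes lay between -0.10 and 0.002. SREBF1 had FPKM values of 43.66 and 48.03 in WT and of 47.85 and 43.58 in KO1, so the groups overlapped (log2 fold change -0.004, SE 0.137, adjusted p = 0.991). SREBF2 had 30.01 and 32.26 in WT and 29.61 and 28.40 in KO1, where both KO1 values were lower by a small margin (log2 fold change -0.10, SE 0.138, adjusted p = 0.735). For SCAP, the values of 26.89 and 29.82 in WT lay inside those of 31.57 and 25.47 in KO1 (log2 fold change 0.002, SE 0.166, adjusted p = 0.996). The sign of the SREBF1 and SCAP differences depended on the scaling or GC trend removal and on which library was left out. The FPKM table does not measure cleavage of the SREBP proteins.

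INSIG1, the retention factor that is also an SREBP target, had the log2 fold change farthest from 0 of the 36 genes in the values as deposited, while EBP was farther with the GC trend removed, under quantile normalization and with replicate 1 of either group left out. Its FPKM was 14.26 and 14.02 in WT, and 5.58 and 8.27 in KO1. The group means were 14.1 ± 0.170 and 6.93 ± 1.90 (SD, n = 2 each), so the KO1 mean was 0.490 of the WT mean, and the groups were well apart. The log2 fold change of -0.95 (SE 0.223) did not pass the test across all genes (limma, adjusted p = 0.0707). With the GC trend of each library removed, as described below, the value was -0.78 (adjusted p = 0.00664) and passed. INSIG1 also passed with median-ratio scaling (adjusted p = 0.0192) and quantile normalization (0.0278). It did not pass with a pseudocount of 0.1 (0.0719), no filter on low values (0.127), a minimum FPKM of 5 (0.053), eBayes without a trend (0.0697) or a replicate block (0.161). With 1 library left out, its log2 fold change ran from -1.20 to -0.71. Of the 20 neighbours of INSIG1, 15 were lower in KO1, with a median of -0.20.

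INSIG2, a relative of INSIG1, was expressed at a lower level, with FPKM values of 4.21 and 2.69 in WT and 1.85 and 2.09 in KO1. Both KO1 values were below both WT values, but the WT libraries differed widely from each other, and the log2 fold change of -0.56 (SE 0.235) did not pass (adjusted p = 0.230). The gene lies at chr2:118088471-118110997, in a stretch where its neighbours were higher in KO1. Of the 10 tested protein-coding genes on each side, 19 of 20 had a log2 fold change above 0, with a median of 0.49.

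Among the 18 enzymes that lead from acetyl-CoA to cholesterol, 9 had a log2 fold change above 0 and 9 below 0, and the median was 0.004. EBP, the isomerase that moves the sterol double bond late in the pathway, fell. Its FPKM was 132.47 and 149.82 in WT and 86.55 and 66.66 in KO1. The means were 141 ± 12.3 and 76.6 ± 14.1 (SD, n = 2 each), a ratio of 0.543, with a log2 fold change of -0.88 (SE 0.170, limma, adjusted p = 0.0443). The call was lost with no filter on low values (adjusted p = 0.0962), with eBayes without a trend (0.0687) and without WT replicate 2 (0.144), while the direction was kept throughout.

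EBP lies on the short arm of the X chromosome (chrX:48521808-48528716), where all 20 neighbours taken were lower in KO1 as well. Their log2 fold changes ran from -4.73 to -0.29 with a median of -0.79, close to the -0.88 of EBP itself. NSDHL, another enzyme of late cholesterol synthesis, lies on the long arm of the same chromosome. Its FPKM was 27.83 and 34.39 in WT and 39.01 and 33.45 in KO1, so the groups overlapped, and 16 of its 20 neighbours were higher in KO1 with a median of 0.45. What part the position of EBP and NSDHL had in their values was not tested.

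The values of the remaining members are given in the order of the pathway, and those named were chosen after their values were seen, for groups that did not overlap or for their levels. HMGCS1, the synthase that makes HMG-CoA, had FPKM values of 8.41 and 6.13 in WT and 9.03 and 12.77 in KO1 (log2 fold change 0.52, adjusted p = 0.288). MVK, mevalonate kinase, had 7.34 and 8.03 in WT and 11.30 and 10.16 in KO1 (0.43, adjusted p = 0.228). MVD, the decarboxylase that follows, had 9.19 and 10.00 in WT and 14.20 and 10.84 in KO1 (0.34, adjusted p = 0.379). In these 3 genes both KO1 values were above both WT values, yet none passed the test. PMVK, the kinase between MVK and MVD, and the thiolase ACAT2 had overlapping groups. Of the 20 neighbours of PMVK, 16 were lower in KO1 and 4 higher, with a median of -0.17, while PMVK itself was at 0.17.

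The next enzymes build the isoprenoid chain and join it into squalene. IDI1, the isomerase of isopentenyl diphosphate, had FPKM values of 16.52 and 11.50 in WT and 6.60 and 10.91 in KO1 (log2 fold change -0.64, adjusted p = 0.267), and 12 of its 14 neighbours were lower, with a median of -0.44. FDPS, which makes farnesyl diphosphate, was the member with the highest mean, at 151.26 and 168.40 in WT and 137.11 and 116.61 in KO1 (-0.33, SE 0.145, adjusted p = 0.246). FDFT1, squalene synthase, had 63.57 and 76.23 in WT and 49.33 and 46.96 in KO1 (-0.52, SE 0.146, adjusted p = 0.102). All 3 were lower in both KO1 libraries and none passed. Of the neighbours of FDFT1, 17 of 20 were lower in KO1, with a median of -0.51, and the part of position in the values of IDI1 and FDFT1 was not tested.

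From squalene to cholesterol the members were mixed. SQLE, squalene epoxidase, had overlapping groups (18.78 and 17.61 in WT, 13.52 and 18.52 in KO1). LSS, which closes the sterol rings, had FPKM values of 15.95 and 16.42 in WT and 24.09 and 20.92 in KO1 (log2 fold change 0.45, SE 0.157, adjusted p = 0.164). DHCR7, the reductase of the last step to cholesterol, had 39.77 and 45.72 in WT and 57.30 and 52.88 in KO1 (0.36, adjusted p = 0.207). MSMO1, which oxidises the methyl groups of the sterol ring, had lower values of 7.35 and 6.61 in WT and 3.67 and 5.97 in KO1 (-0.48, adjusted p = 0.327). TM7SF2, a sterol reductase and the lowest member tested, was at 1.57 and 1.90 in WT and 1.49 and 1.23 in KO1. CYP51A1 (29.17 and 22.49 in WT, 18.53 and 29.62 in KO1), HSD17B7, SC5D and the carrier STARD4 had overlapping groups. Of the 20 neighbours of SC5D, 15 were lower in KO1 and 5 higher, with a median of -0.53, while SC5D itself was at 0.34. LSS and DHCR7 thus lay above WT in both KO1 libraries and MSMO1 and TM7SF2 below, and none of the 4 passed.

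Summed over the 18 enzymes, FPKM was 596 and 651 in WT and 554 and 510 in KO1, lower in both KO1 libraries. Without EBP the sums were 464 and 501 in WT and 467 and 444 in KO1, and the groups overlapped. The sum follows the abundant genes EBP and FDPS, whereas the median weighs every enzyme alike.

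**Figure D1:**
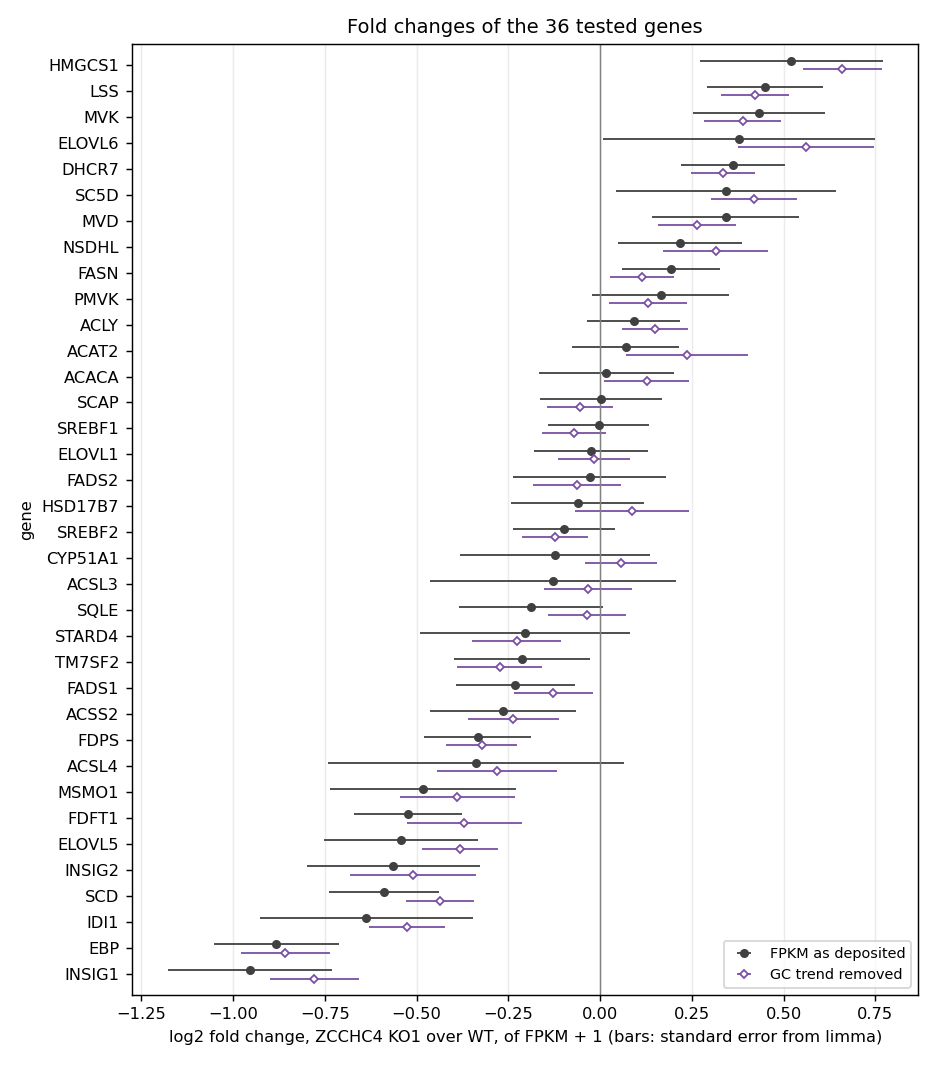
Log2 fold change of each of the 36 genes tested (KO1 minus WT, log2(FPKM + 1) scale, bars of 1 SE from limma), with the value after removal of the GC trend beside it. EBP is the only member past an adjusted p of 0.05 without that removal, and INSIG1 has the lowest value at -0.95.

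The fatty acid genes lay on balance close to the other genes, with a median log2 fold change of -0.08 over the 12 tested and a range of -0.59 to 0.38. Both KO1 libraries were below both WT libraries in 4 of them (33.3%) and above in 1 (8.33%), against 28.5% and 23.1% of all genes. ACLY, the citrate lyase that supplies cytosolic acetyl-CoA, was among the 3 members with the highest mean, at 108.96 and 120.00 in WT and 119.91 and 123.96 in KO1 (log2 fold change 0.09, SE 0.127, adjusted p = 0.732). ACACA, the carboxylase that makes malonyl-CoA for synthesis, was at 16.51 and 16.65 in WT and 14.72 and 19.12 in KO1. FASN, fatty acid synthase, had 96.33 and 102.44 in WT and 120.91 and 106.82 in KO1 (0.19, adjusted p = 0.462), and 19 of its 20 neighbours also had values above 0, with a median of 0.28. In none of these 3 did the difference pass the test.

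SCD, the desaturase that makes monounsaturated fatty acids, had the lowest log2 fold change of the fatty acid genes. Its FPKM was 121.48 and 122.90 in WT and 72.52 and 90.28 in KO1, and the WT libraries were nearly alike while both KO1 libraries were lower. The log2 fold change was -0.59 (SE 0.151, adjusted p = 0.0861), and 10 of its 20 neighbours were lower and 10 higher. ELOVL5, an elongase of polyunsaturated fatty acids, had 58.83 and 51.07 in WT and 30.86 and 45.14 in KO1 (-0.54, SE 0.210, adjusted p = 0.201). Of the neighbours of ELOVL5, 17 of 20 were lower, with a median of -0.49. Neither gene passed the test, and what part the position of ELOVL5 had in its value was not tested.

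FADS1, the delta-5 desaturase, had 37.86 and 35.30 in WT and 27.73 and 34.64 in KO1, and ACSS2, which activates acetate, had 3.64 and 3.86 in WT and 3.30 and 2.63 in KO1. Their log2 fold changes of -0.23 and -0.27 did not pass (adjusted p = 0.469 and 0.501). FADS2, the delta-6 desaturase next to FADS1, had overlapping groups at 13.24 and 15.45 in WT and 16.36 and 11.98 in KO1. FADS1 and FADS2 overlap by 801 bases in the RefSeq annotation, so reads from the overlap could be assigned to either. The elongases ELOVL1 and ELOVL6 and the acyl-CoA ligases ACSL3 and ACSL4 had overlapping groups too. ACSL4 shows how wide that spread could be, with 11.39 and 5.49 in WT and 4.38 and 8.34 in KO1. Summed over the 13 fatty acid genes, FPKM was 554 and 560 in WT and 498 and 531 in KO1, and without SCD it was 433 and 437 in WT and 426 and 441 in KO1, where the groups overlapped.

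The spread within each group followed the GC content of the transcripts, and in opposite directions in the 2 groups. Of the 12 members with a transcript GC content below 45%, 12 were lower in WT replicate 2 than in WT replicate 1, and 12 were higher in KO1 replicate 2 than in KO1 replicate 1. Of the 13 members above 55%, 13 were higher in WT replicate 2 and 13 were lower in KO1 replicate 2. Across the 36 members, which share their 4 libraries and are not independent replicates, Spearman's rho of GC content with replicate 2 minus replicate 1 was 0.680 in WT and -0.813 in KO1. The same held over all genes tested, at 0.725 and -0.784. The GC content of the members also had a rho of 0.387 with their log2 fold change, and the part of GC content in the members' differences was examined only by removing the trend.

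**Figure D2:**
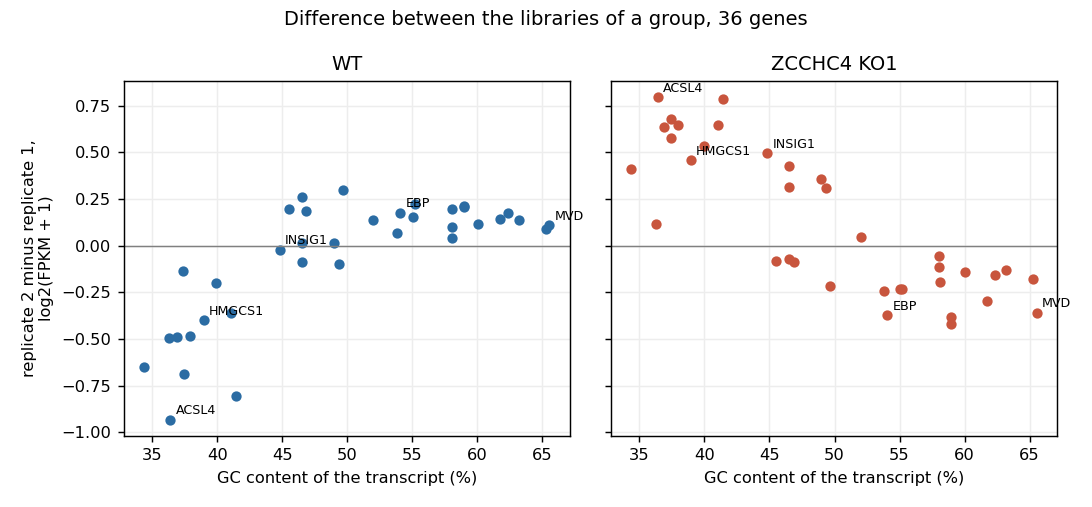
Difference between replicate 2 and replicate 1 (log2(FPKM + 1)) of the 36 members against transcript GC content in percent, for WT and for ZCCHC4 KO1. The points climb with GC content in WT (rho 0.680) and descend in KO1 (rho -0.813).

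With a smooth GC trend removed from each library, 5 members passed higher and 5 lower, against 13% and 13.9% of all genes. The share of members called was thus near the background in both directions. The 5 higher members were all enzymes of cholesterol synthesis. Their log2 fold changes were 0.66 for HMGCS1 (adjusted p = 0.00778), 0.39 for MVK (0.0385), 0.42 for LSS (0.0205), 0.34 for DHCR7 (0.0353) and 0.42 for the desaturase SC5D (0.0420). The 5 lower members were EBP at -0.86 (0.00504), INSIG1 at -0.78 (0.00664), IDI1 at -0.53 (0.0147), SCD at -0.44 (0.0187) and ELOVL5 at -0.38 (0.0388). EBP and IDI1 are enzymes of cholesterol synthesis too, so 5 of the 18 such enzymes among the 36 members tested were called higher and 2 lower. After this removal the 18 enzymes of cholesterol synthesis had a median of 0.11, against 0.05 for all genes tested. Without EBP, the lowest of them, the median was 0.13.

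The trend removal left the neighbours of EBP and INSIG2 where they were. All 20 neighbours of EBP stayed below 0, with a median of -0.82, and 1 of the 20 neighbours of INSIG2 was below 0, with a median of 0.52. INSIG2 itself had a log2 fold change of -0.51 (adjusted p = 0.0725). Removing the trend from INSIG1 gave FPKM values of 12.48 and 14.04 for the WT replicates and 6.83 and 7.80 for the KO1 replicates, and the groups were still apart.

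Genes around the pathway were read from lists written by function. Of 11 further regulators of SREBP processing and INSIG or SCAP turnover, limma called 0 lower and 0 higher at an adjusted p below 0.05, and 3 were lower and 0 higher at an unadjusted p below 0.05, against 13.9% and 8.96% of all genes. Among them MBTPS2, the site-2 protease gene on the X chromosome, had FPKM values of 8.51 and 5.57 in WT and 2.25 and 3.34 in KO1 (log2 fold change -1.07, adjusted p = 0.0837). RNF145, a ubiquitin ligase, had 25.62 and 23.40 in WT and 11.23 and 16.43 in KO1 (-0.80, adjusted p = 0.0923). Both were named after their values were seen, and neither passed. With the GC trend removed both did, at -0.91 (adjusted p = 0.00391) and -0.63 (0.00900). Of 11 genes of the isoprenoid branch, 0 were called in either direction by limma, and 1 was lower and 0 were higher at an unadjusted p below 0.05, fewer in either direction than those shares.

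Of 17 genes of sterol traffic, storage and efflux, 14 were tested, and both KO1 libraries were below both WT libraries in 9 (64.3%) and above in 1 (7.14%), against 28.5% and 23.1% of all genes. The median log2 fold change of the 14 was -0.41, against -0.03 over all genes, and with the GC trend removed it was -0.29, against 0.05. GRAMD1B, which carries sterol from the plasma membrane to the endoplasmic reticulum, fell, from 20.24 and 19.28 in WT to 7.97 and 9.90 in KO1 (log2 fold change -1.07, SE 0.180, adjusted p = 0.0310). SOAT1, which esterifies cholesterol for storage and was named after its values were seen, had 30.12 and 22.90 in WT and 9.37 and 15.96 in KO1 (-1.04, adjusted p = 0.0943; -0.89 and 0.00287 with the GC trend removed). GRAMD1B, the 1 gene of the list called, lost its call with no filter on low values (adjusted p = 0.0651), with a replicate block (0.0549), without WT replicate 1 (0.177) and without WT replicate 2 (0.129). With the GC trend removed 4 of the 14 genes were called lower and 1 higher, against 13.9% and 13% of all genes.

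Of 21 further genes of elongation, desaturation, activation and the supply of substrate, 20 were in the table and 12 were tested, with 1 called lower. ACSL1, an acyl-CoA ligase, fell from 1.28 and 1.27 in WT to 0.17 and 0.07 in KO1 (log2 fold change -1.02, SE 0.161, adjusted p = 0.0260). The change lay near the low end of the values tested. ACSL1 passed the filter through its WT libraries alone, so its entry to the test rested on the group where it was high. It was not tested under the filter with the higher minimum FPKM. Without ZCCHC4 KO1 replicate 2 its log2 fold change was -0.96, and the call was lost.

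Of 14 genes of glycerolipid synthesis and lipid droplets, 12 were tested and 2 were called, both lower. AGPAT1, an acyltransferase on the way to phosphatidic acid, fell from 43.64 and 47.00 in WT to 25.37 and 25.94 in KO1 (log2 fold change -0.80, adjusted p = 0.0312). DGAT2, which makes triacylglycerol, fell from 1.73 and 1.84 in WT to 0.17 and 0.36 in KO1 (-1.14, limma, adjusted p = 0.0247). DGAT2 passed the filter through its WT libraries alone, so its entry to the test rested on the group where it was high. AGPAT1 lost its call with no filter (adjusted p = 0.0532), eBayes without a trend (0.0503), a replicate block (0.106), without WT replicate 1 (0.170) and without WT replicate 2 (0.274), and DGAT2 lost it without ZCCHC4 KO1 replicate 1 (0.0549) and was not tested at a minimum FPKM of 5. Of 16 genes of fatty acid oxidation, 15 were tested and 1 was called. That gene was ECI2, an isomerase for unsaturated fatty acids, which fell from 33.81 and 34.83 in WT to 13.38 and 13.75 in KO1 (-1.28, SE 0.143, adjusted p = 0.0117). The called genes of these lists stood beside a share of 4.48% lower and 1.5% higher over all genes tested.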

How the data were processed

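RNA-seq was analysed in 2 WT and 2 ZCCHC4 KO1 libraries. The authors deposited FPKM values, 1 column per library, made by aligning reads to GRCh38 with Bowtie2 and estimating expression with RSEM. Versions, gene annotation and read filters are not given in the sources used here. The labels name an Illumina HiSeq and the methods a BGISEQ platform. FPKM values are not counts, the depth is unknown, and the precision rests on 2 libraries per group.

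Genes with an FPKM of at least 1 in at least 2 libraries (10726 of 16658) were compared as log2(FPKM + 1), a scale that understates fold changes of low genes, with limma 3.58.1 in R 4.3.3 (lmFit, eBayes with a trend, two-sided, Benjamini-Hochberg over all genes tested). The code was tested on simulated data. Symbols, positions and promoter windows came from RefSeq (GRCh38.p14), and 16384 of 16658 gene IDs had a symbol. Transcript GC content came from GENCODE canonical transcripts, for 98.4% of genes tested. The GC trend was removed from each library with a natural spline of 4 degrees of freedom. Neighbours were up to 10 tested protein-coding genes on each side.

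The members and lists were chosen with earlier results of these data known. Values in every library were given, by rule, for the regulators, called members, the 3 highest members, members in stretches of neighbours that moved together, and called genes of the lists (at most 4 a list). One gene that the rule names is withheld and its result was left out. Besides FADS1 and FADS2, RefSeq spans of coding genes overlap those of SREBF1, ACAT2, MVK, IDI1 and ACACA, and whether the counting used strand is not given in the sources used here. The alternatives were another pseudocount, 2 other filters, 2 normalizations, GC trend removal, eBayes without a trend, a replicate block and leaving out each library.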

Additional observations from a re-analysis of the deposited data

How the results depend on the processing

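Of the 23 members and targeted gene followed across 13 alternatives, 21 kept their direction under each that gave a value (12 for INSIG2, TM7SF2 and ACSS2, which a minimum FPKM of 5 left out). The exceptions were the near-zero values of SREBF1 (0.072 with median-ratio scaling, -0.071 to 0.063 over the fits that left out 1 library each) and SCAP (-0.056 with the GC trend removed, -0.147 to 0.152 with 1 library left out). Most of the 23 were followed because their groups did not overlap, so neither leaving out 1 library nor another pseudocount could change their direction. The filters, eBayes without a trend, the replicate block and the crossed pairing leave the log2 fold change itself unchanged. The kept direction under these alternatives was thus fixed in advance and is no test of it. The number of members called lower, 1, became 0 with no filter on low values or with eBayes without a trend, 2 when libraries were scaled by median ratios, 4 under quantile normalization and 5 once the GC trend was removed, and ranged from 0 (without WT replicate 2) to 5 (without ZCCHC4 KO1 replicate 2) with 1 library left out, where the lone library of a group is assumed to vary like the other group. The number called higher, 0, became 5 with the GC trend removed. No member passed the thresholds of the study under any of the 13. Over all genes, 161 higher and 480 lower became 82 and 262 with no filter, 346 and 664 when scaled by median ratios, 466 and 721 under quantile normalization, 1373 and 1464 once the GC trend was removed, and 97 to 558 higher and 273 to 1037 lower with 1 library left out.

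Same-numbered libraries deviated in opposite directions (Pearson's r of the within-group differences across genes, -0.787), and nothing in the labels pairs them. The replicate block called 1 member lower and 0 higher, and 107 genes higher and 355 lower. A crossed pairing, chosen after seeing the data and with 1 residual degree of freedom, called 11 members lower and 7 higher, and 2986 genes lower and 2309 higher. The causes were not tested. Depth could not be read from FPKM values, so the limit it sets on low members such as TM7SF2 and STARD4 is unknown.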
